A study of Mus musculus with 8 samples.

Results

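Total expression of autosomal genes was compared between XiΔXist mouse embryonic fibroblasts (MEFs) that carried YY1 hairpins and XiΔXist MEFs that carried a scramble hairpin. The members were the genes on chromosomes 1 to 19 with 50 or more allele-assigned reads in both hairpin pools together, with the reads of both alleles summed. This rule kept 7979 of 40935 autosomal gene identifiers, of 46078 identifiers in the tables, and these genes held 96.0% of the autosomal reads of both pools. Of them, 7451 were protein-coding.

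YY1 is a zinc finger transcription factor that is made in almost every cell type. It binds a short motif built around ATGG, often close to transcription start sites, and it can activate or repress a gene depending on its partners, among them the INO80 remodelling complex and Polycomb proteins. It is known for its part in mitochondrial and ribosomal gene expression, in chromatin looping and in tethering Xist RNA to the X chromosome.

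The series holds RNA-seq of 8 MEF samples in 4 groups of 2 samples, WT, XiΔXist, XiΔXist shSCR and XiΔXist shYY1. All were labelled as female cells of a 129S1/SvImJ x CAST/EiJ cross, while the paper names the 129 parent as 129Sv4/Jae, and an RNA read that covers a difference between the strains can be assigned to 1 allele. The paper describes the WT and XiΔXist cells as clonal lines. XiΔXist cells lack Xist on the inactive X chromosome, and that deletion was carried by both hairpin groups. The hairpins entered by lentivirus under puromycin selection, so the shSCR group shares the virus and the selection with the shYY1 group.

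For shYY1 the methods name 2 hairpins, and the labels do not say which sample received which. The deposited tables hold 1 column of counts per group and allele, with both samples of a group pooled, so that there was no spread between replicates and no test. Counting intervals are given in its place. They cover counting error only, since sequenced copies of 1 molecule are not independent and nothing is known here of the spread between cultures. A read without a strain difference was not counted, so "total" below means all allele-assigned reads of a gene.

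The 2 hairpin pools had nearly the same autosomal depth, 1470870 reads in shSCR and 1472083 in shYY1. The untreated pools were deeper, with 18745483 autosomal reads in WT and 21342574 in XiΔXist. The 129 allele held 73.3% of the autosomal reads in both hairpin pools. A gene of the set had a median of 92 reads in shSCR and 91 in shYY1. Levels below are counts scaled to 1000000 autosomal reads of the pool (CPM), and a log2 ratio is that of CPM + 1, shYY1 over shSCR. It is positive where shYY1 was higher.

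The targeted gene was lower in shYY1 on both alleles. Yy1 (chr12:108792973-108820148, GRCm38) had 237 reads in shSCR and 92 in shYY1, a log2 ratio of -1.35 with a 95% counting interval of -1.73 to -1.01. On the 129 allele it had 65 reads against 31, and on the CAST allele 172 against 61. The Yy1 level was 161 CPM in shSCR and 62.5 in shYY1, beside 82.0 in WT and 79.5 in XiΔXist, so that the scramble pool stood above both untreated pools. The untreated cells had neither virus nor selection, and their levels are given below only side by side. Levels of some genes differed by large factors between untreated and hairpin XiΔXist pools, and whether the cells and libraries were of the same line and kind is not stated.

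Most autosomal genes differed little between the pools. The log2 ratio had a median of -0.02 and an SD of 0.41 over the 7979 genes, and 86.3% of them lay within 1.5-fold. A gene was called when its level differed by 1.5-fold or more and its 95% counting interval left out equal levels. By this rule 477 genes (5.98%) were higher in shYY1 and 477 (5.98%) were lower, while 7025 were neither. At 2-fold, 125 (1.57%) were higher and 90 (1.13%) were lower. These 4 percentages are the background over all genes, and the counts of each list below are to be read beside them. The share depended on depth, with 10.4% higher and 10.7% lower from 50 to under 100 reads, 7.80% and 7.44% from 100 to under 200, 2.93% and 3.22% from 200 to under 500, and 1.45% and 1.89% from 500 to under 1000. The balance of the calls moved with the scaling, since CPM of all reads of a pool, mitochondrial reads included, gave 353 higher and 607 lower, with the median of all genes at -0.08.

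**Figure D1:**
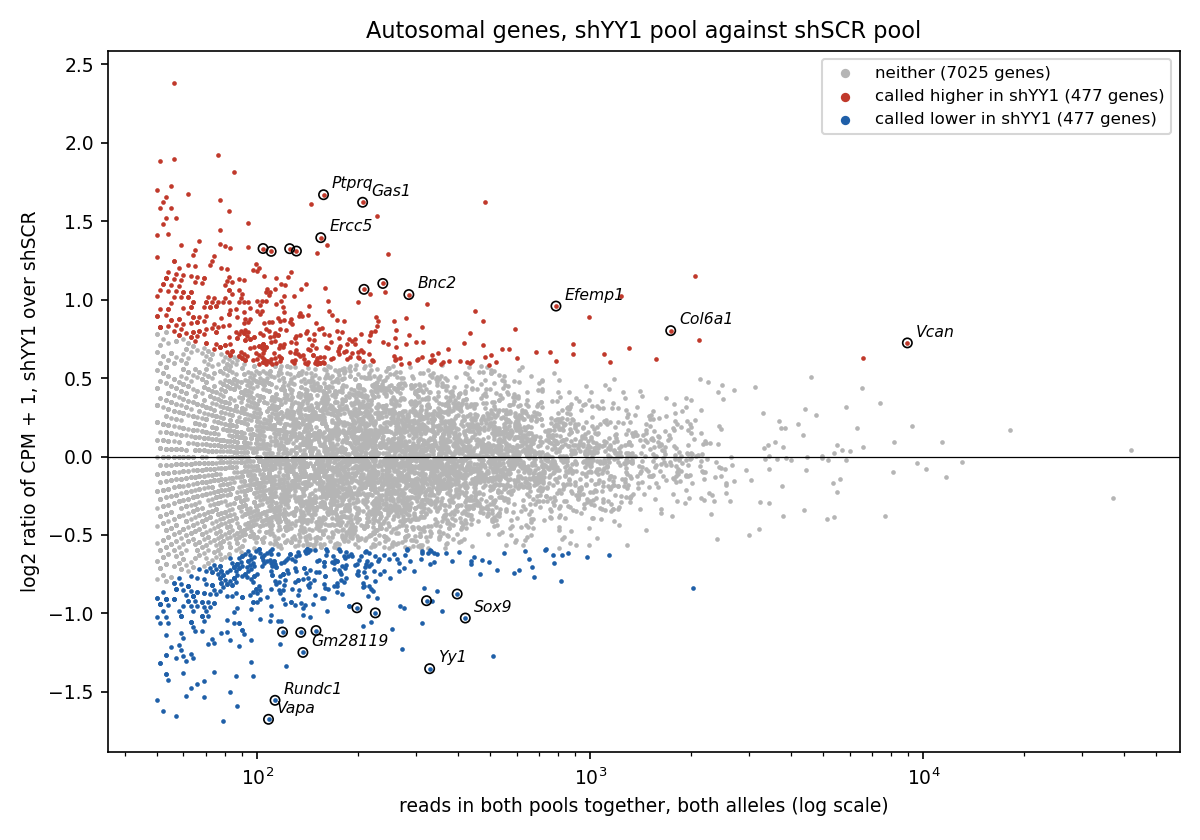
Log2 ratio of CPM + 1 (shYY1 over shSCR) against the reads of a gene in both pools together on a log axis, 1 point for each of the 7979 autosomal genes. Red and blue points are the 477 genes called higher and the 477 called lower, circles mark the genes named in the text by rule, and the cloud narrows from left to right while Vcan and Col6a1 stay outside it at over 1000 reads.

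The spread between the pools was wider than counting error at every depth. Among the 2042 genes with 50 to 99 reads the SD of the log2 ratio was 0.56, against a median counting error of 0.35. Among the 459 genes with 1000 or more reads the SD was 0.23 and the counting error 0.075, and 10 of these genes were called higher and 2 lower. The excess over counting holds whatever differed between the cultures and libraries of each pool, and its sources cannot be told apart here. Genes just inside the read limit (50 to 54 reads, 266 genes) had an SD of 0.66, and those just outside (45 to 49 reads, 305 genes) had 0.67.

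The alleles gave a second reading of each call, though not an independent one, since both came from the same libraries. Of the 203 genes called higher from CAST reads alone, 61.1% were also above 0 on the 129 allele, beside 48.6% of all 2955 genes read on both. Of the 211 called lower from CAST reads, 62.1% were below 0 on the 129 allele, beside 51.4% of all. The size shrank on the allele not used for the call, from a median of 0.85 to 0.15 for the higher genes and from -0.85 to -0.14 for the lower ones. Among the 477 genes called higher from both alleles together, 238 had 10 or more reads of each allele, and in 64 of those each allele alone left out equal levels. Among the 477 called lower, 250 had such reads and 46 passed on each allele.

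The clearest higher genes were varied in function and included several matrix genes. They were ranked by the interval bound nearest to equal levels among genes with 100 or more reads and the same direction on both alleles. Gas1, a membrane protein induced at growth arrest that binds Hedgehog ligands (chr13:60174405-60177365), had 50 reads in shSCR and 157 in shYY1, a log2 ratio of 1.62 (1.18 to 2.14). It was higher on both alleles, with 36 against 115 reads of 129 and 14 against 42 of CAST. Its exons overlap those of Gm48488, and without strand information the reads of both cannot be told apart.

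Ptprq, a receptor-type phosphatase, had 37 reads against 121 (1.67, 1.17 to 2.28), most of them from CAST. Ercc5, the XPG nuclease of nucleotide excision repair, had 42 against 113 (1.40, 0.90 to 1.97). The CPM + 1 of Ercc5 was 2.63-fold higher in shYY1.

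Ppm1e, a protein phosphatase, had 35 reads in shSCR and 90 in shYY1, and B3glct, a glucosyltransferase that modifies thrombospondin repeats, had 37 and 94. Gata6, a zinc finger transcription factor of mesoderm and endoderm, had 29 and 75, and Pgpep1, a pyroglutamyl peptidase, had 31 and 79. Lrrcc1, a centrosomal protein, had 75 and 163, and Bnc2, a zinc finger protein of mesenchymal cells, had 93 and 192. The log2 ratios of these 6 genes lay between 1.03 and 1.33. The exons of Gata6 and Lrrcc1 overlap other genes.

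The 4 remaining named higher genes encode extracellular matrix. Vcan, the large proteoglycan versican (chr13:89655312-89742509), had by far the most reads of the named genes, 3370 in shSCR and 5574 in shYY1, a log2 ratio of 0.72 (0.66 to 0.79). Col6a1, a chain of the microfibril collagen VI, had 634 and 1108 (0.80, 0.66 to 0.95). Efemp1, the fibulin-3 glycoprotein, had 267 and 521 (0.96, 0.75 to 1.18), and Fbln5, the elastic fibre protein fibulin-5, had 67 and 142 (1.07, 0.65 to 1.52). Efemp1 was at 294 CPM in WT and 0.609 in untreated XiΔXist, against 182 and 354 CPM in the hairpin pools.

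The named lower genes were also varied. Vapa, which anchors the endoplasmic reticulum to other membranes (chr17:65578327-65613555), had 83 reads in shSCR and 25 in shYY1, the largest drop among them, with a log2 ratio of -1.68 (-2.44 to -1.07). Rundc1, a RUN domain protein, had 85 and 28 (-1.55, -2.27 to -0.97), and its exons overlap those of Ptges3l. Sox9, the transcription factor of cartilage and other progenitors (chr11:112782224-112787760), had 283 and 138 (-1.03, -1.34 to -0.74). On the 129 allele Sox9 went from 147 to 60 reads, and on the CAST allele from 136 to 78.

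Akr1a1, an aldehyde reductase, had 211 reads in shSCR and 111 in shYY1. Map3k3, a kinase upstream of ERK5, had 151 and 75. Strn4, a scaffold of the STRIPAK complex, had 132 and 67 reads.

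Wrb, a receptor for tail-anchored proteins at the endoplasmic reticulum, had 93 reads in shSCR and 42 in shYY1. Zc3h12c, a CCCH zinc finger protein, had 82 and 37. The noncoding genes Gm28119, which overlaps the microRNA gene Mir125b-1, 2410006H16Rik and 9230105E05Rik had 97 and 40, 103 and 47, and 258 and 140 reads. 9230105E05Rik was at 2.35 CPM in WT and 5.44 in untreated XiΔXist, against 175 and 95.1 in the hairpin pools. 2410006H16Rik was at 63.5 and 67.3 CPM untreated, against 70.0 and 31.9. Wrb and Zc3h12c also overlap other annotated genes. With each allele alone, 24 of 25 named genes with enough 129 reads and 20 of 23 with enough CAST reads were still called. The sign could not differ, since the rule asked for the same sign on both alleles. Among the exceptions were Pgpep1 on 129 reads and Vcan and Gm28119 on CAST reads, with log2 ratios of 0.71, 0.47 and -0.68.

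**Figure D2:**
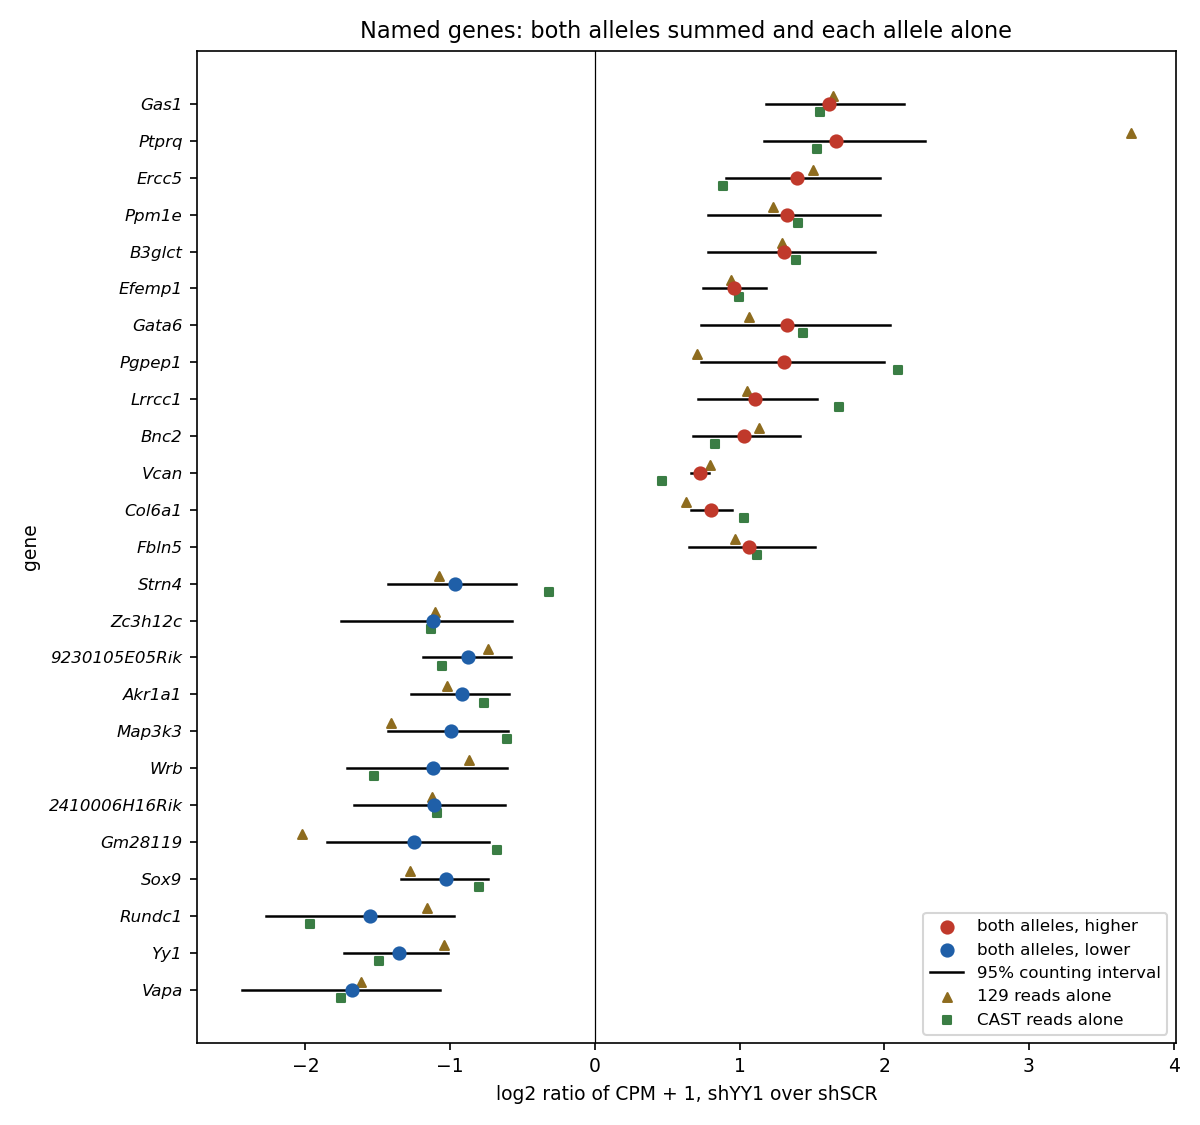
Log2 ratio of CPM + 1 (shYY1 over shSCR) of 25 named genes, with both alleles summed (dots, red higher and blue lower), the 95% counting interval (bars), 129 reads alone (triangles) and CAST reads alone (squares). The triangles and squares share the side of their dot because the rule required it, and the interval of Vcan (0.66 to 0.79) is the narrowest.

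Some genes with differences of similar or larger size were outside this rule because all their reads came from 1 allele, and these were picked after their values were seen. Sprr1a, a cornified envelope protein that is also induced by stress, had 117 reads in shSCR and 364 in shYY1 (1.62). Cyp1b1, a cytochrome P450 that is controlled by the aryl hydrocarbon receptor, had 407 and 828 (1.02). Medag, an adipogenesis gene, had 8 and 48 (2.38), the largest log2 ratio of all 7979 genes, on few reads. Sprr1a was at 0.0469 CPM in untreated XiΔXist and at 28.5 in WT, against 79.5 and 247 CPM in the hairpin pools. The exons of Medag overlap those of Gm20488.

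The partners of YY1 were not lower as a group. In a list of the YY1 family and its chromatin partners, 28 genes were measured, with a median of 0.11. Of these 4 (14.3%) were called higher, 2 (7.14%) lower and 22 neither, against 5.98% of all genes in each direction. Yy1 itself was 1 of the 2 lower ones. Hdac1, a histone deacetylase, had 81 reads in shSCR and 49 in shYY1 (-0.71, -1.27 to -0.20), but near-identical pseudogene copies may share its reads. Ino80b and Ino80c, subunits of the INO80 remodeller, had 18 and 35 and 41 and 64 reads. Rnf2, the catalytic subunit of PRC1, had 37 and 65, and Eed, a core subunit of PRC2, had 28 and 55 reads. The exons of Ino80b, Rnf2 and Eed overlap other genes.

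The YY1 motif was looked for in RefSeq promoter windows (GRCm38.p6), each 300 bases long, from 250 bases before to 50 after the gene start. The letters searched were AANATGGC and, on the other strand, GCCATNTT, where N is any base. Of 7217 tested protein-coding genes outside chromosome 18, 6014 (83.3%) had a window, and 683 of these (11.4%) held the motif in at least 1 window. Of all 32851 single windows, those of genes not tested included, 6.05% held it. These 2 shares differ in unit, since a matched gene had 1.28 windows on average. Among the genes called higher, 21 of 344 (6.10%) held the motif, and among those called lower 47 of 348 (13.5%). Seen from the motif, 3.07% of the 683 genes were called higher and 6.88% lower, against 5.72% and 5.79% of all 6014.

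The median log2 ratio was -0.02 with the motif and -0.02 without it. With 200 or more reads, 3 of 320 motif genes (0.938%) were called higher and 9 (2.81%) lower, against 2.54% and 2.33% of all 2876 genes with a window at that depth. Genes with and without the motif had nearly the same exonic GC content, with medians of 48.7% and 49.03%. The gene lists differed in how often they held it. It was in 16 of 45 mitochondrial ribosomal protein genes with a window (35.6%), in 10 of 42 splicing factors (23.8%), in 9 of 42 nuclear OXPHOS genes (21.4%) and in 0 of 13 collagens.

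Among the named genes with a window, 2 of 8 lower ones held the motif, Rundc1 and Wrb, and 0 of 10 higher ones. The stretches that follow are those of the called genes with the largest log2 ratios and 100 or more reads, shown to let the motif be seen in its place in both directions. Each is 30 bases of a promoter window, read 5′ to 3′ on the strand of the gene in GRCm38.p6, with the motif in capitals. A match is a description of the letters and not a bound site.

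Lower in shYY1, with the motif in the window:
Rundc1 (chr11:101425090-101425119, + strand): gcgtttccgggAAGATGGCgacggtggaag
Wrb (chr16:96145175-96145204, + strand): ggcgaaaggcgAAAATGGCtgctaagtaac
Kif15 (chr9:122951063-122951092, + strand): tcaaatctgcgGCCATCTTgaagggaggat
Zfp955b (chr17:33289548-33289577, + strand): cggtagttgctGCCATGTTtgggtcccaga
Gga1 (chr15:78877181-78877210, + strand): accccttcagaAACATGGCtccggagcgtt
Lman2l (chr1:36445222-36445251, - strand): gggccggcggtgggaAAGATGGCggcggct

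Higher in shYY1, with the motif in the window:
Ndufs8 (chr19:3912921-3912950, - strand): ctctctgatacAACATGGCagctccctaca
Mrpl58 (chr11:115403761-115403790, + strand): cctgggaggtgAACATGGCgaccgcctggg
Coq9 (chr8:94838408-94838437, + strand): tgcccacttccAAGATGGCggcgacagcag
Tm9sf4 (chr2:153161321-153161350, + strand): agcgggtctgccagaagtcAATATGGCtcc

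The motif lay on the strand of the gene in Rundc1, Wrb, Gga1 and Lman2l and on the other strand in Kif15 and Zfp955b. It lay within 50 bases after the gene start in Rundc1, Zfp955b, Gga1 and Lman2l, close before it in Kif15 and 214 bases before it in Wrb. Kif15, a mitotic kinesin, had 212 reads in shSCR and 101 in shYY1 (-1.06). Kif15 did not meet the rule of the named genes for reads or sign on both alleles. Gga1, a trans-Golgi adaptor, had 97 and 47 (-1.02), and Lman2l, a cargo receptor of the early secretory pathway, had 91 and 46 (-0.96). Reads of the zinc finger gene Zfp955b (80 and 38) may be shared with a near-identical copy, and the exons of Lman2l, Mrpl58 and Coq9 overlap other genes. Among the higher genes, Ndufs8, a subunit of respiratory complex I, had 30 and 70 reads (1.18), Mrpl58, a peptidyl-tRNA hydrolase of the mitochondrial ribosome, had 34 and 69 (0.99), and Coq9, needed for coenzyme Q synthesis, had 34 and 66 (0.93). The same letters thus stood at promoters of genes called in opposite directions.

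Collagens had the highest median of the 36 functional lists. Of 16 measured collagen genes, 6 (37.5%) were called higher, 0 lower and 10 neither, against 5.98% of all genes in each direction. Their median log2 ratio was 0.32 beside -0.02 over all genes. The called members were Col1a2, Col3a1, Col6a1, Col6a2, Col11a1 and Col12a1. Col1a2, a chain of the fibrillar collagen I, had 2577 reads in shSCR and 3995 in shYY1 (0.63, 0.56 to 0.70), and it was higher on both alleles, with 1362 against 2147 reads of 129 and 1215 against 1848 of CAST. Col3a1, the fibrillar collagen III, had 71 and 176 (1.29, 0.90 to 1.73), nearly all from the 129 allele, and its exons overlap Gm47302.

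Col6a2 had 215 and 380 reads (0.82, 0.58 to 1.07), Col11a1, a minor fibrillar chain, 108 and 214 (0.98, 0.64 to 1.33), and Col12a1, which decorates collagen I fibrils, 618 and 952 (0.62, 0.47 to 0.77). Col1a1 had 1893 and 2691 reads and a log2 ratio of 0.51, under the limit of 1.5-fold. Col6a3, the third chain of the same collagen VI, went the other way without reaching the limit, with 1778 and 1456 reads (-0.29, -0.39 to -0.19). Col8a1 was at -0.17 and Col16a1 at -0.06, and both were short of a call. The collagens have GC-rich exons, with a median of 56.2%, and with log2 ratios centred within 5 equal classes of GC content, an alternative added after the values were seen, their median was 0.43.

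Matrix glycoproteins and proteoglycans had 8 of 40 members higher (20%) and 1 lower (2.5%), with a median of 0.14. The share over all genes was 5.98% in each direction. Besides Vcan, Efemp1 and Fbln5, the higher ones were Fbn1, the microfibril protein fibrillin-1 (498 and 805 reads), Loxl2, a collagen and elastin crosslinking enzyme (155 and 296), Sparc, a collagen-binding matricellular protein (292 and 465), Emilin1 (35 and 55) and Nid2 (13 and 40). Loxl2 was read almost wholly from CAST and Fbn1 almost wholly from 129. The reads of Nid2 cannot be told apart from those of its overlapping neighbour Rtraf. Spon1, the secreted protein spondin-1, was the lower member, with 56 and 34 reads (-0.70).

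Matrix proteases and their inhibitors had 3 of 20 members higher (15%) and 1 lower (5%), against 5.98% of all genes in each direction. Their median was 0.11. Adamts5, an aggrecanase that also cleaves versican, had 637 reads in shSCR and 1419 in shYY1 (1.15, 1.02 to 1.29), all on the 129 allele. Plat, the tissue plasminogen activator, had 58 and 171 (1.53, 1.12 to 2.01), but did not meet the rule of the named genes for reads or sign on both alleles. Adamts1, another protease of the family, had 196 and 308 (0.65, 0.39 to 0.92). Adamts5 was at 1444 CPM in WT and 36.1 in XiΔXist, against 433 and 964 CPM in the hairpin pools.

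**Figure D3:**
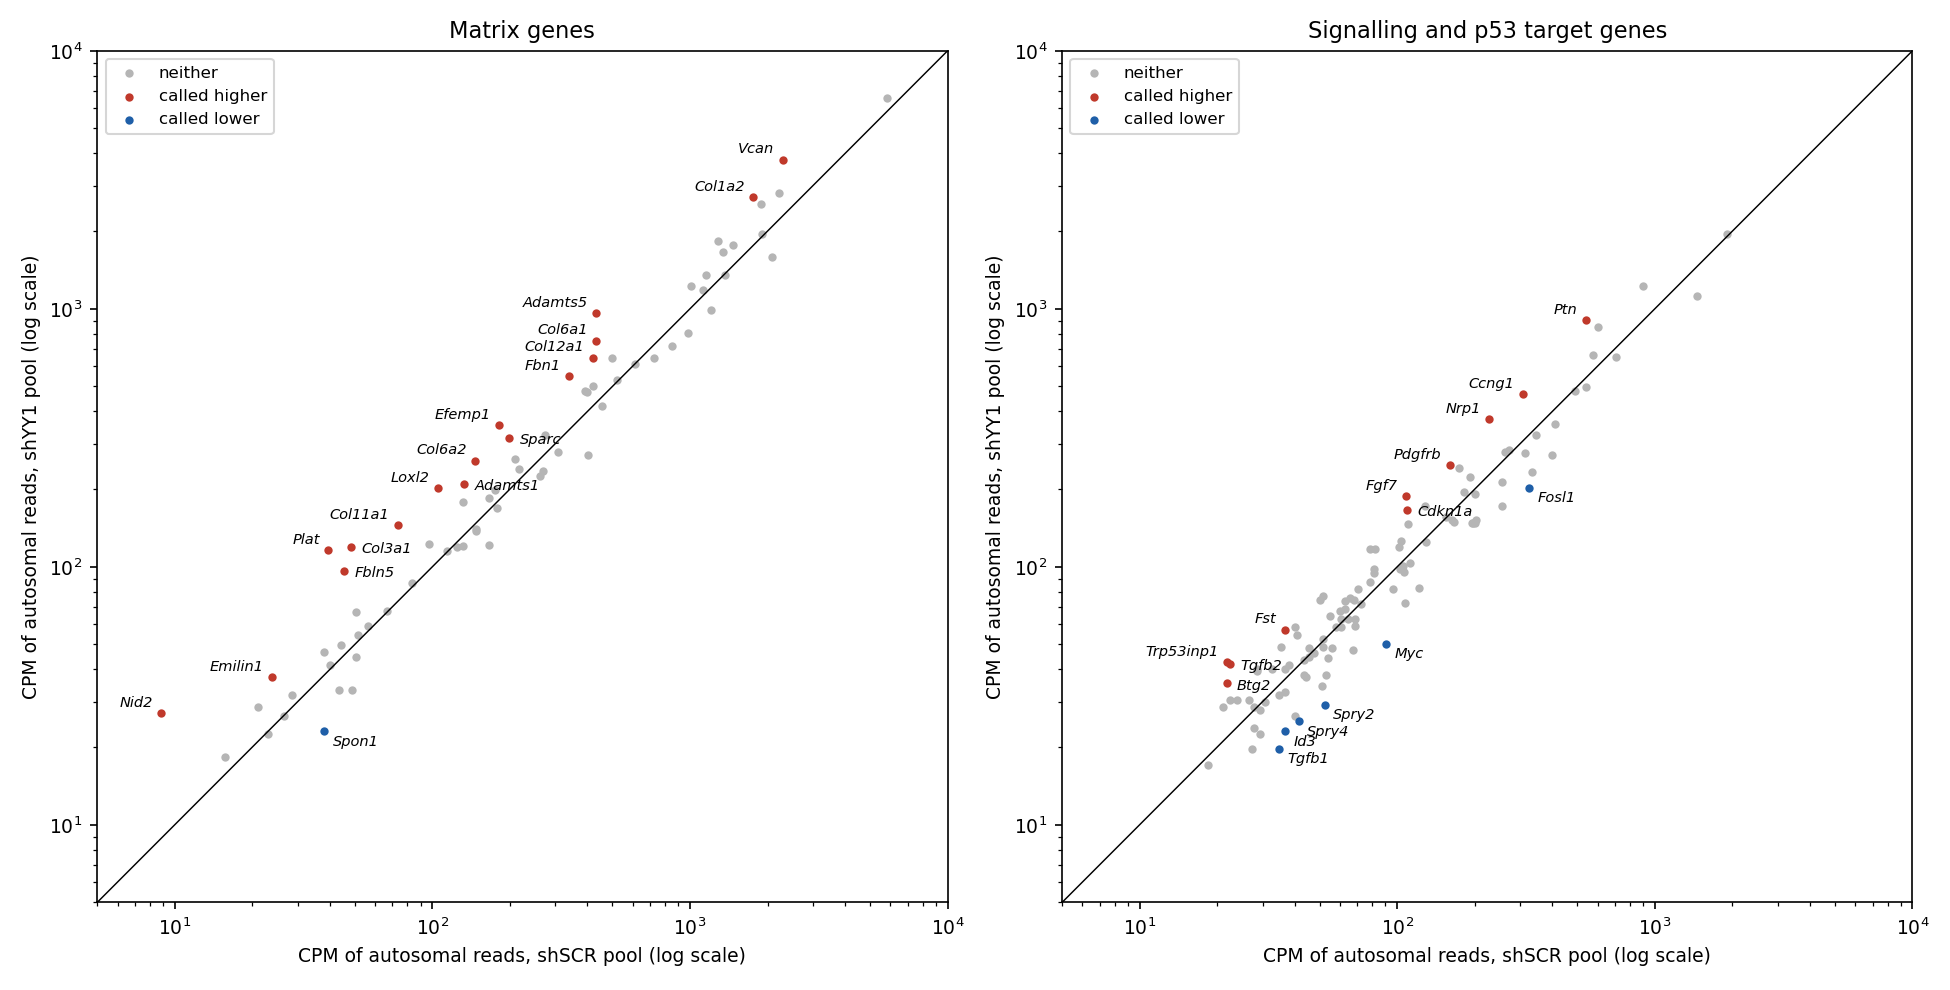
CPM of autosomal reads in shYY1 (vertical) against shSCR (horizontal), both on log axes with the line of equal levels, for members of the matrix lists (left) and of the immediate-early, p53, TGF-beta and growth factor lists (right), with called members named. On the left the called genes lie above the line except for Spon1, and on the right Fosl1 and Myc are among those below.

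Immediate-early and AP-1 genes, which respond to growth factors and stress within minutes, stood low as a list. None of the 28 measured genes was called higher, 4 were called lower (14.3%) and 24 neither. The median was -0.13, and 20 of the 28 were below 0. The median member had 146.5 reads in both pools together, a depth at which 7.80% of all genes were called higher and 7.44% lower. Fosl1, the AP-1 subunit FRA-1, had 477 reads in shSCR and 298 in shYY1 (-0.68, -0.89 to -0.47). Myc had 133 and 74 (-0.83, -1.28 to -0.43), Spry2 had 77 and 43 and Spry4 had 61 and 37, both feedback inhibitors of receptor tyrosine kinase signalling. Dusp4, a MAP kinase phosphatase, was at -0.51 on 490 and 344 reads without reaching the limit. Egr1 (188 and 254 reads, 0.43), Dusp6 (52 and 72, 0.46) and Jund (42 and 59, 0.48) were on the other side of 0. The exons of this list were also GC-rich, with a median of 53.2%, and its median was -0.09 with GC-centred ratios. Fosl1 was at 1.64 CPM in untreated XiΔXist against 324 in shSCR and 202 in shYY1.

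TGF-beta and BMP genes went in both directions, with 2 higher and 4 lower of 32 and a median of 0.01. Among the lower ones, Tgfb1, a ligand, had 51 reads in shSCR and 29 in shYY1, and Id3, a BMP target, had 54 and 34. Tgfb2 (33 and 62 reads) and Fst, the activin antagonist follistatin (54 and 84), were the higher ones.

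Growth factors and receptor tyrosine kinases had 4 of 33 members higher (12.1%) and 1 lower (3.03%), against 5.98% of all genes in each direction. Their median was -0.07. Ptn, the heparin-binding factor pleiotrophin, had 793 and 1331 reads (0.74, 0.62 to 0.87) and was higher on both alleles. Nrp1, a co-receptor of VEGF and semaphorins, had 334 and 551 (0.72, 0.52 to 0.92), Pdgfrb, a receptor of PDGF on mesenchymal cells, had 235 and 365 (0.63, 0.39 to 0.88), and Fgf7, a fibroblast factor for epithelia, had 159 and 276 (0.79, 0.51 to 1.09). In the Wnt, Notch and Hedgehog list 2 of 21 were higher, Gas1 and the Wnt receptor Ror1 (38 and 66), and 1 lower, the Notch ligand Jag1 (45 and 18).

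Adhesion genes had 2 of 34 members higher and 2 lower. Itgb8, an integrin chain that activates latent TGF-beta, had 15 and 61 reads (1.92), with 10 and 57 on CAST but 5 and 4 on 129, so that the alleles went apart. Cd81, a tetraspanin, had 94 and 166 reads (0.81). Itga6, a laminin receptor chain, had 293 and 174 (-0.75, -1.03 to -0.48), and Sdc3, a heparan sulphate proteoglycan, had 426 and 250 (-0.77). The exons of Cd81 and Sdc3 overlap other genes.

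**Figure D4:**
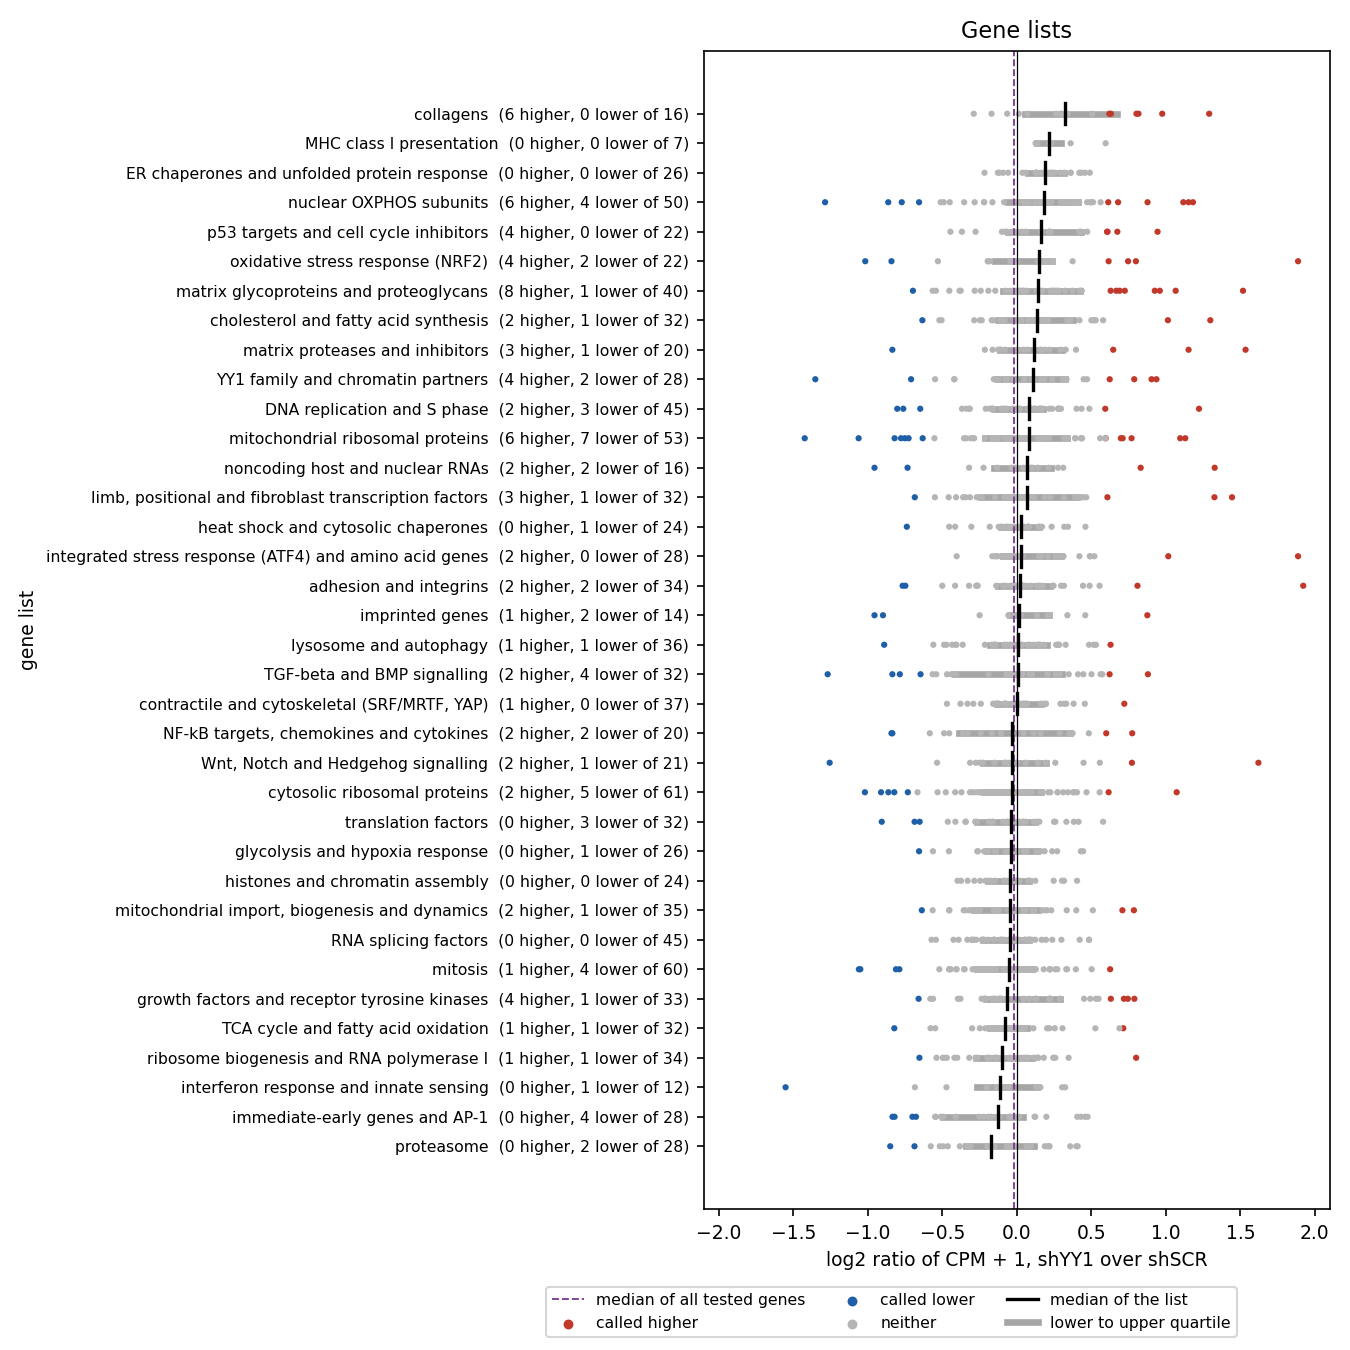
Log2 ratio of CPM + 1 (shYY1 over shSCR) of the measured members of 36 gene lists, ordered by the median (black tick), with the quartiles as a grey bar and the median of all 7979 genes as a dashed line. Collagens stand at the top with 0.32 and 6 of 16 members called higher, and the proteasome stands at the bottom with -0.17.

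Targets of p53 and cell cycle inhibitors had 4 of 22 members higher (18.2%), 0 lower and 18 neither, with a median of 0.16. The median member had 181.5 reads in both pools together, in the class where 7.80% of all genes were called higher and 7.44% lower. Cdkn1a, the inhibitor p21, had 160 reads in shSCR and 245 in shYY1 (0.61, 0.32 to 0.91), Ccng1, cyclin G1, had 452 and 689 (0.61, 0.43 to 0.78), Trp53inp1 had 32 and 63, and Btg2, an antiproliferative protein, had 32 and 52. Cdkn1a and Ccng1 were both read from the 129 allele alone, and the median of the list was -0.04 over the 12 members with 20 or more CAST reads.

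Cell division genes differed little as lists. In the mitosis list 1 of 60 was higher and 4 were lower, with a median of -0.05. The lower members were Kif15, Nusap1, a spindle protein (74 and 35 reads), Aurka, the Aurora A kinase (73 and 41), and Cdc25c, an activator of CDK1 (77 and 44), and the higher one was Ckap2l (105 and 163). In the DNA replication list 2 of 45 were higher, among them Cdc45 of the replicative helicase (18 and 44) and Chaf1b of chromatin assembly factor 1 (173 and 262), and 3 were lower, Orc1, Gins2 and Pold1. None of 24 histone and chromatin assembly genes was called in either direction, with a median of -0.04, and the most read were the architectural protein Hmga2 (2277 and 2151 reads) and Cbx5, which encodes HP1 alpha (1937 and 1928). None of 45 splicing factors was called either, and the most read were Srrm2 (2481 and 2468) and Son (1422 and 1278), both proteins of nuclear speckles.

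Genes of mitochondrial respiration, a group known to be controlled by YY1, gave calls in both directions. Of 50 measured nuclear OXPHOS subunits, 6 were higher and 4 lower, 37 were above 0 and the median was 0.18. Ndufs8, Ndufv3 (32 and 73 reads, 1.15) and Cox7c (25 and 56, 1.12) were the furthest up, and Ndufa5 (46 and 18, -1.29), Ndufb6 (43 and 23, -0.86) and Ndufb5 (42 and 24, -0.77) were the furthest down, so subunits of complex I stood at both ends. Sdhc, a membrane anchor of complex II, had 152 and 96 reads (-0.66, -1.05 to -0.29). The median member of the list had 143 reads in both pools together, a depth at which 7.80% of all genes were called higher and 7.44% lower. Ndufa6, Cox5a and Uqcrb were the other higher members.

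Mitochondrial ribosomal proteins had 6 of 53 members higher (11.3%) and 7 lower (13.2%), with a median of 0.08 and a median of 119 reads, in the same class of depth. Mrpl35 (40 and 14 reads, -1.42) and Mrps16 (60 and 28, -1.06) were the lowest, and Mrps33 (17 and 39, 1.13) and Mrpl34 (38 and 83, 1.10) were the highest. Cytosolic ribosomal proteins had 2 of 61 higher and 5 lower (8.20%), with a median of -0.03. Rpl23 (112 and 61 reads, -0.86) was among the lower ones, as were Rplp2, Rpl38 and Rps28. It had no near-identical copy among the transcripts searched, while Rps3a1 (51 and 109), Rpl32 and Fau did and are uncertain. Translation factors had 0 of 32 higher and 3 lower, Eif1 (35 and 18), Eif2s2 (271 and 168) and Eif6 (161 and 102), with a median of -0.04.

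Genes of protein folding in the endoplasmic reticulum were shifted slightly upward without any call. Of 26 measured members 21 were above 0, with a median of 0.19. Hspa5, the chaperone BiP, had 604 and 809 reads (0.42, 0.27 to 0.57), Hsp90b1 had 304 and 411 (0.43, 0.22 to 0.65) and Canx, the lectin chaperone calnexin, had 875 and 1125 (0.36, 0.23 to 0.49). The median of the list was 0.12 with CPM of all reads. In the other direction stood the proteasome, with 0 of 28 higher, 2 lower and a median of -0.17. Psmd13 had 66 and 36 reads (-0.85) and Psmb4 had 136 and 84 (-0.69, -1.11 to -0.29). With 129 reads alone the median of the proteasome list was -0.05.

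The NRF2 list of oxidative stress genes had 4 of 22 members higher (18.2%) and 2 lower (9.09%), with a median of 0.15. At its median depth of 128 reads, 7.80% of all genes were called higher and 7.44% lower. Slc7a11, the cystine importer, had 10 and 41 reads (1.89). Keap1, the repressor of NRF2, had 39 and 69 (0.80), and Nfe2l2, which encodes NRF2 itself, had 53 and 90 (0.75). Gstm1 was the other higher member, and its copy Gstm2-ps1 may share its reads. The lower members were Cat, catalase (46 and 22, -1.02), and Hmox1, haem oxygenase 1 (105 and 58, -0.84), so the list had members at both ends. In the ATF4 list Slc7a11 and Psph, an enzyme of serine synthesis (20 and 42), were higher and none of 28 was lower. Hsf1, the heat shock factor, was the called member of the heat shock list, with 111 and 66 reads (-0.74), and 0 of 24 were higher.

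Immune genes were thinly covered. Interferon response genes had 12 measured members of 54, with 0 higher and 1 lower, Samd9l, an antiviral factor (38 and 12 reads, -1.55). All 7 measured genes of MHC class I presentation lay above 0 and none was called, with a median of 0.22. This list shares the chaperone genes Calr, Canx and Pdia3 with the list of protein folding in the endoplasmic reticulum, so it is not a separate result. B2m, the light chain, had 561 and 653 reads (0.22, 0.05 to 0.38). Of 20 NF-kB targets and cytokines 2 were higher, the chemokines Ccl2 (80 and 138) and Cx3cl1 (132 and 201), and 2 were lower, among them Hmox1. The list of macrophage and blood markers summed to 25.2 CPM in shSCR and 60.5 in shYY1, with Lyz2 at 2 and 23 reads, Csf1r at 3 and 14, Ptprc at 1 and 0, and Itgam at 0 in both. Of its 12 genes 3 were at 0 in both pools, and its part in these results was not tested.

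Metabolic lists had few calls. In cholesterol and fatty acid synthesis 2 of 32 were higher, the sterol exporter Abca1 (43 and 108 reads, 1.30) and Scap, the escort of SREBP (24 and 50). In the same list 1 was lower, Hsd17b7 (114 and 73), and the median was 0.14. Abca1 did not meet the rule of the named genes for reads or sign on both alleles. In glycolysis and the hypoxia response 0 of 26 were higher and 1 was lower, Gapdh, which overlaps Iffo1 (78 and 49). TCA cycle and fatty acid oxidation had 1 of 32 higher, Suclg1 (39 and 65), and 1 lower, Echs1 (40 and 22). Lysosome and autophagy genes had 1 of 36 higher and 1 lower, Optn (42 and 22). Mitochondrial import and dynamics had Clpx (33 and 58) and Esrra (30 and 50) higher and Clpp (63 and 40) lower of 35. Ribosome biogenesis had Polr1e (51 and 90) higher and Polr1b (59 and 37) lower of 34, both subunits of RNA polymerase I.

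Among limb, positional and fibroblast transcription factors 3 of 32 were higher and 1 was lower. Gata6 was among the higher ones, as was Snai2, a repressor of epithelial genes (88 and 135, 0.61). Foxc2, a forkhead factor of mesenchyme, was lower (131 and 81, -0.68). Of 14 imprinted genes Mcts2 (32 and 60) was higher, and Airn (44 and 22) and Plagl1 (59 and 31) were lower. Of 37 contractile and cytoskeletal genes only Myl6, a myosin light chain, was called, with 157 and 260 reads (0.72, 0.44 to 1.02).

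Noncoding RNA genes were few at this depth. In the list of host and nuclear RNAs 2 of 16 were higher, Snhg18 (23 and 60) and Mir22hg (28 and 51), and 2 lower, Airn and Mir17hg, the host of a microRNA cluster (94 and 56). Of 19 snoRNA genes 5 were higher (26.3%) and 0 lower, with a median of 0.25. Their median was 89 reads in both pools together, and at that depth 10.4% of all genes were called higher and 10.7% lower. Snord118, the U8 snoRNA of ribosomal RNA processing, had 312 and 478 reads (0.61, 0.41 to 0.82) and was higher on both alleles. It was at 9.28 CPM in WT and 9.79 in XiΔXist against 212 and 325 CPM in the hairpin pools. Of the other called snoRNAs, Gm23130 and Gm24044 overlap exons of the ribosomal protein genes Rps12 and Rpsa. The 59 lincRNA genes had a median of -0.19, with 3 higher and 4 lower.

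The calls followed GC content in 1 direction. In 5 equal classes of protein-coding genes from the lowest to the highest exonic GC content, the share called lower was 3.22%, 3.62%, 5.84%, 7.85% and 8.72%, while the share called higher stayed between 5.50% and 6.30%. The median log2 ratio went from 0.05 in the lowest class to -0.11 in the highest. Depth fell over the same classes, with medians of 222, 218, 194.5, 179 and 151.5 reads in both pools together. Calls were more frequent at low depth, and the part of depth in this trend was not tested. Genes called lower had a median GC content of 51.4%, against 48.2% for those called higher and 48.8% for all. Its part in the calls was not tested beyond the GC-centred ratios, which gave 491 higher and 422 lower genes, of which 441 and 399 were among the 477 and 477. Among the list members named above, the exons of Cdkn1a, Fosl1, Fbn1, Loxl2, Tgfb2, Fst, Nrp1, Nusap1, Cdc25c, Cdc45, Ckap2l, Orc1, Gins2, Ndufb5, Ndufb6, Eif6, Hsp90b1, Psmd13, Psph, Keap1, Scap, Echs1, Optn, Esrra, Plagl1, Jund, Mir17hg and Mir22hg overlap other genes, and their values are uncertain in the same way as that of Gas1. Chromosomes differed little, with medians between -0.05 on chromosome 7 and 0.04 on chromosome 13.

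**Figure D5:**
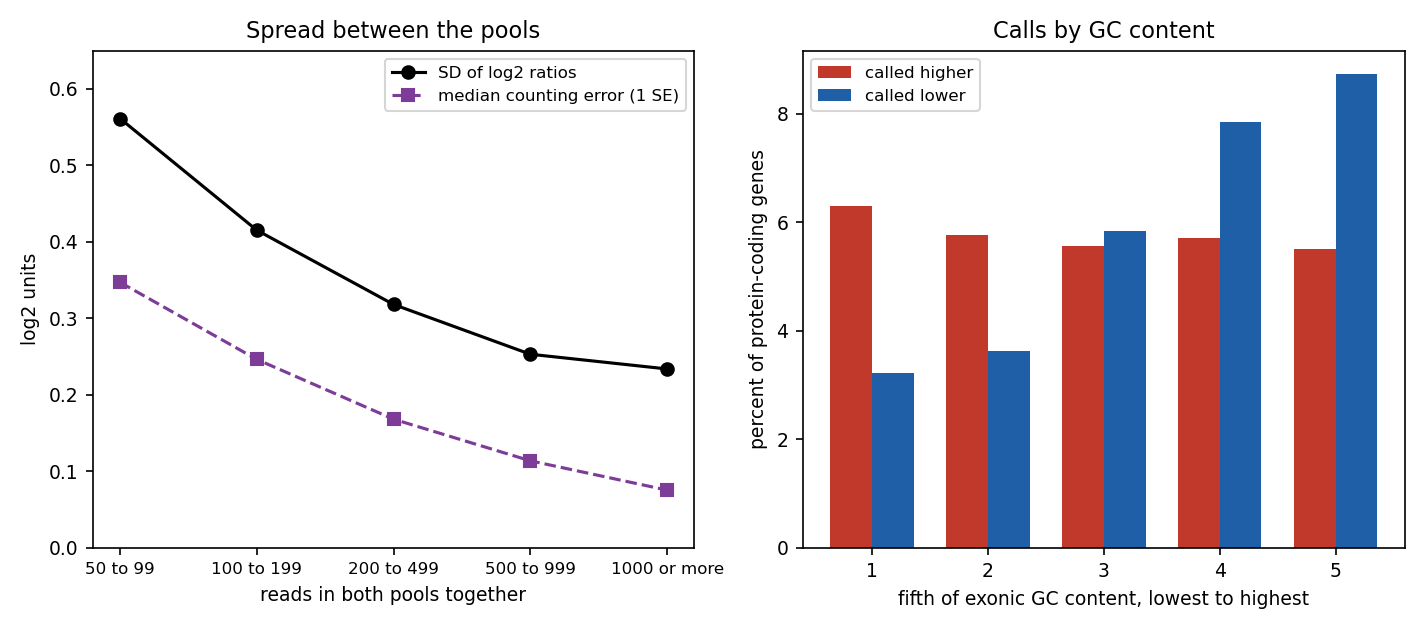
Left, SD of the log2 ratios and median counting error (1 SE) in 5 classes of reads, and right, the percent of protein-coding genes called higher (red) and lower (blue) in 5 equal classes of exonic GC content. The SD stays above the counting error in every class, 0.23 against 0.075 at 1000 or more reads, and the share called lower grows from 3.22% to 8.72%.

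Both pools looked like fibroblasts by their markers, though the label could be checked only in part. The 14 fibroblast markers summed to 14444 CPM in shSCR and 16806 in shYY1, with Vim, Fn1, Prrx1, Thy1 and Col1a1 well read, and Lum and Twist1 at 0 in both pools. Of 10 measured fibroblast markers 3 were called higher, the collagen genes Col1a2 and Col3a1 and Pdgfrb, and 0 lower, with a median log2 ratio of 0.36. Of 12 muscle markers, 11 had 0 reads in both pools, which allows up to 3 counts per pool, and Des had 1 read. Endothelial markers summed to 6.12 and 2.04 CPM, adipocyte markers to 66.6 and 52.99, and epithelial markers to 21.8 and 16.3. Neural and glial markers summed to 790 and 865 CPM, nearly all of it from Nes (944 and 1111 reads) and Map2 (214 and 160). Cartilage and bone markers summed to 196 and 103 CPM, almost all Sox9, with Matn1, Sp7, Bglap and Ibsp at 0. In bulk RNA, fewer cells of a kind and less RNA per cell cannot be told apart, and this applies to each difference above.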

How the data were processed

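RNA-seq was made from total RNA of cultured MEFs with the KAPA RNA HyperPrep kit. Per the study's methods, the authors pooled the replicates of a group, aligned the reads with TopHat to an mm10 genome masked at positions that differ between the strains, removed reads of MAPQ under 30, used SNPsplit to separate the alleles and ran featureCounts on exons (version 1.6.3 in the submitters' processing notes). The deposited values are raw counts per Ensembl gene, pool and allele, and strand setting and annotation release are not given in the sources used here. Genes were placed with GENCODE M21.

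Both alleles were summed, and levels were scaled to autosomal reads (CPM). Genes with 50 or more reads in both pools together were kept, and log2 ratios used a pseudocount of 1 CPM. The exact (Clopper-Pearson) 95% interval of the share of reads from shYY1 was turned into an interval of the ratio, without pseudocount. A call needed a 1.5-fold difference and an interval without equal levels. With 1 pool per group no test was run and no p-value is given. Calculations used Python 3.11.15, pandas 2.3.3 and SciPy 1.17.1. The calls were tested on simulated counts with counting error alone. The simulation lacked the spread beyond counting seen between these pools, so it does not show how the calls behave under that spread. Alternatives were other scalings (edgeR 4.0.16 TMM, DESeq2 1.42.0 size factors), pseudocounts, read limits, alleles and gene classes.

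Named genes were Yy1 and, by the bound of the interval nearest to equal levels, the 14 higher and 14 lower genes with 100 or more reads, 10 or more on each allele and the same sign on both. Yy1 was itself among the 14 lower. Some genes that these rules name are not reported here. From each of the 36 lists up to 3 called members in each direction, by size, were named, or the 2 most read where none was called. Other members, the untreated levels shown and the genes of single alleles were chosen after their values were seen. Near-identical copies were searched with blastn 2.17.0 (90% identity over 50% of the transcript) for 181 genes, of which 10 had one. The gene set and the lists were chosen with earlier results of these data known. Motif searches used the RefSeq windows that could be matched by Ensembl identifier, or otherwise by symbol or synonym, on the same chromosome.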

Additional observations from a re-analysis of the deposited data

Results flagged for a closer look

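Reads of mitochondrial genes, which lie outside the autosomal comparison, made up a larger share of the shYY1 pool than of the control pool, 39.5% (95% Wilson interval 39.4 to 39.5) against 36.7% (36.7 to 36.8). Nearly all of them came from the ribosomal RNAs, with mt-Rnr1 at 428520 reads in shSCR and 478140 in shYY1 and mt-Rnr2 at 422130 and 473974. On CPM of all reads, the log2 ratios were 0.09 for mt-Rnr1 and 0.10 for mt-Rnr2. The messenger RNAs stood higher, from 0.13 for mt-Co1 and 0.32 for mt-Cytb to 0.57 for mt-Nd2 and 0.58 for mt-Nd6. All 9 mitochondrial genes with 50 or more reads had intervals above equal levels on this scale, without a replicate of either pool.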

How the results depend on the processing

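With 1 pool per group, no replicate could be left out. No paired analysis was possible because the pooled columns carry no replicate. Counts of genes called higher and lower moved by over 1.5 times, from 477 and 477, to 229 and 229 with CAST reads alone (3262 genes), 93 and 96 at 200 or more reads, 958 and 929 with no read minimum, 296 and 297 for genes whose exons overlap no other gene and 125 and 90 at 2-fold. The 99% interval gave 304 lower genes. In the first 4 of these another number of genes was tested, and the last 2 were stricter by construction. TMM factors gave 501 and 460, and size factors 506 and 453. Of the list medians, 8 left the binomial 95% interval of the main median. With CAST reads alone these were translation factors (-0.25), DNA replication (-0.11), mitosis (-0.19), ER chaperones (0.11) and splicing factors (0.031), with 129 reads contractile genes (0.070), with all reads ER chaperones (0.12) and with no minimum the interferon list (0.18). The cause was not tested. Medians changed sign in 9 lists with CAST reads, 7 with 129 reads, 7 with no read minimum, 6 with CPM of all reads, 6 with genes without exon overlap and at most 4 under any other setting. Over the settings run, collagens stayed between 0.26 and 0.51 and immediate-early genes between -0.33 and -0.09. Of the named genes, 4 lost their call on 1 allele, where the rule that chose them had fixed the sign. Depth limits every gene of under 100 reads, where the median counting error of a log2 ratio was 0.35.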
